A study of Mus musculus with 9 samples.

Results

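Olfactory signal transduction genes encode the machinery that turns the binding of an odorant into an electrical signal, and 10 of them were described here: Omp, Gnal, Adcy3, Cnga2, Cnga4, Cngb1, Ano2, Gng13, Kcnmb3 and Gfy. They were chosen by name, as the rows of the deposited expression table whose Ensembl identifiers carry these symbols, and all 10 were found among the 21930 identifiers of the table. Poly(A) RNA was sequenced from mouse nasal mucosal tissue in 9 libraries of wild-type (WT) animals, 3 in each of 3 groups. The papain plus exosomes group (labelled eCRS_Exo, treatment papain+MSC-Exos) had 20 µg of the protease papain in 20 µl of PBS in the nose on days 0 to 2 and again on days 7 to 11, with exosomes given by the same route on days 7 to 11. The papain group (labelled eCRS, for a mouse model of eosinophilic chronic rhinosinusitis) had the same papain course, and the protocol gives PBS as the alternative to exosomes. The control group is labelled with no treatment, and the protocol states that mice were killed on day 12. The labels give neither the age, sex and strain of the mice nor the source of the exosomes, and they do not say whether the 3 libraries of a group came from separate mice, so p-values measure the spread between libraries, which may be technical.

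In the mouse nose, olfactory sensory neurons carry 1 kind of odorant receptor each on cilia that reach into the mucus. An activated receptor acts on the olfactory G protein, whose alpha subunit is encoded by Gnal, and this stimulates the adenylyl cyclase encoded by Adcy3. The cyclic AMP it makes opens a cation channel built from the products of Cnga2, Cnga4 and Cngb1, and the calcium that enters opens the chloride channel encoded by Ano2, which enlarges the current. Omp encodes the olfactory marker protein, the classical marker of mature olfactory sensory neurons. Gng13 encodes a G protein gamma subunit found in olfactory neurons and also in taste cells, Kcnmb3 an auxiliary subunit of the large-conductance calcium-activated potassium channel, and Gfy a Golgi protein that mouse studies have linked to the delivery of the Adcy3 product to olfactory cilia.

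Promoter windows are shown because the genes moved together across the libraries. The RefSeq table of GRCm38.p6, which gives 250 bases before to 50 bases after each annotated start, held windows for 8 of the genes (12 windows), and had none for Omp, while Gnal was not used. The windows were searched for CCCNNGGG, the core of the site bound by Ebf (Olf-1) factors, for the longer TCCCNNGGGA, which contains the core, and for TAATTA, the core of Lhx2-type homeodomain sites. Each of these motifs reads the same on both strands. CCCNNGGG was present in at least 1 window of 6 of the 8 genes, against 15.4% of the 27025 genes of the table. By window, it was present in 6 of the 12, against 13.7% of the 32851 windows of the table. TCCCNNGGGA was present in 1 of the 8 genes, Gfy, against 1.06% of all genes, and TAATTA in 0 of the 8, against 6.12% of all genes. The windows of 4 genes are printed 5′ to 3′ on the strand of the gene, with CCCNNGGG in capitals: Gfy, which holds the longer motif, Cnga2, a channel subunit with the core, and Gng13 and Kcnmb3, the 2 genes whose values departed from the others.
Gfy, chr7:45179548-45179847, minus strand: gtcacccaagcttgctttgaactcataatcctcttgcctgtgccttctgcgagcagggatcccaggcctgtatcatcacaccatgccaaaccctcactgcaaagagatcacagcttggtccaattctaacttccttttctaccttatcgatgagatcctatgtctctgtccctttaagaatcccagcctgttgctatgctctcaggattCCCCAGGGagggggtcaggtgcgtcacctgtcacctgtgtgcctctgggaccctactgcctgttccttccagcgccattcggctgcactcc
Cnga2, chrX:71991599-71991898, plus strand: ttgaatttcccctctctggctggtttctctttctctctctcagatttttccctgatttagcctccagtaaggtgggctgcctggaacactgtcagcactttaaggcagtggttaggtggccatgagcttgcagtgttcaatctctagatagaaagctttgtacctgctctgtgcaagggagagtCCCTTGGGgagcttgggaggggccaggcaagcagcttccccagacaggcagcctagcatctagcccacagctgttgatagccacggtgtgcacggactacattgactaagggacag
Gng13, chr17:25716922-25717221, plus strand: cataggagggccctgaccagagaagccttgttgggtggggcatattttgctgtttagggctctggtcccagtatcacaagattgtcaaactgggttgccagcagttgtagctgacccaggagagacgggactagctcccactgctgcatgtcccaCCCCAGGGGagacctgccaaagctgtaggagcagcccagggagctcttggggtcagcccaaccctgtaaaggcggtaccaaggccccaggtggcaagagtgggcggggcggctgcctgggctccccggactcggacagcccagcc
Kcnmb3, chr3:32491920-32492219, minus strand: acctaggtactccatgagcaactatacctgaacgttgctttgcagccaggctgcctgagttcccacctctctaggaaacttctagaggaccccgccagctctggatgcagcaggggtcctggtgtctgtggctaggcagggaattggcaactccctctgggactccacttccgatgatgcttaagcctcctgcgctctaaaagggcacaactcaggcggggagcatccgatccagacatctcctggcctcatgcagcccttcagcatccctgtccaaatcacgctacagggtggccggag
The core began at position -41 of Gfy and at position -66 of Cnga2, counted from the annotated start. In the printed window of Gng13 2 overlapping copies began at positions -95 and -94, and the Kcnmb3 window held none. The second window of Gng13, not printed, held none either. In the windows not printed, the core began at position -129 of Cngb1, at position 25 of Cnga4 and at position -67 of the third window of Ano2, and was not found in the windows of Adcy3. A match describes these letters and does not show binding.

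The genes lie on 8 chromosomes of the GRCm38 build, by GENCODE M21 annotation, and all are annotated as protein-coding. Omp (ENSMUSG00000074006, chr7:98143359-98145502, minus strand) is a gene of 1 exon that sits inside Capn5 and shares no exonic base with it. Cnga4 (chr7:105404568-105408742, plus strand) and Gfy (chr7:45176349-45179569, minus strand) are on the same chromosome. Gnal is at chr18:67088216-67226792 on the plus strand, Adcy3 at chr12:4133103-4213525 on the plus strand, Cnga2 at chrX:71991849-72010218 on the plus strand and Cngb1 at chr8:95239045-95306585 on the minus strand. Ano2 is at chr6:125690419-126040126 on the plus strand, Gng13 at chr17:25717171-25719406 on the plus strand and Kcnmb3 at chr3:32471588-32492231 on the minus strand. Of the exonic bases of Gng13, 51.6% overlap Chtf18 on the opposite strand, and 22.1% of those of Adcy3 overlap Cenpo and 7.63% of those of Gnal overlap Mppe1, both on the opposite strand. The sources used here do not say whether strand was used, so reads there could not be assigned to 1 gene, but Chtf18 was listed at 0.564 to 2.75 FPKM and Cenpo at 0.855 to 3.16 FPKM over the 9 libraries.

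Expression was deposited as FPKM, fragments mapped to a gene per length of its transcript and depth of its library, a unit that allows levels of different genes to be compared per length. Differences were tested with limma on log2(FPKM + 1), with all 9 libraries in 1 fit, and a gene was called when its p-value, adjusted by the Benjamini-Hochberg method over all genes tested, was under 0.05. A change on this scale understates that of genes with low values. The sum of FPKM differed between libraries, and the 15 most abundant genes took 38.2% to 64.3% of it in papain plus exosomes, 64.7% to 77.8% in papain and 77.0% to 78.6% in control libraries. The median gene changed by 0.76 (log2) in papain plus exosomes against control as deposited. Every comparison is for this reason also given on scaled FPKM, in which each library was divided by the median of its genes' ratios to their geometric mean over libraries. The factors were 1.18 to 1.75 in papain plus exosomes, 0.710 to 1.07 in papain and 0.763 to 0.765 in control libraries. All 10 genes passed the filter of 1 FPKM in at least 3 libraries on both scales. Over genes, Spearman correlations lay between 0.960 and 0.983 for libraries of the same group and between 0.920 and 0.958 for libraries of different groups. Papain library 2 and papain plus exosomes library 3 stood apart within their groups for these genes: each had the lowest as-deposited value of its group for all 10.

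All 10 genes were detected in every library, and their order of level was nearly fixed. Omp was the highest and Kcnmb3 the lowest of the 10 in all 9 libraries. Among the middle ranks, Cnga4 was always the seventh, Ano2 the eighth and Cngb1 the ninth, while Gfy held rank 2 or 3, Gng13 ranks 2 to 4 and Gnal rank 3 or 4. Adcy3 and Cnga2 shared ranks 5 and 6. In papain plus exosomes Adcy3 was above Cnga2 in each of the 3 libraries, but their ranges over libraries overlapped, with Adcy3 at 60.9 ± 27.0 FPKM and Cnga2 at 55.1 ± 23.9 FPKM (SD, n = 3 each). In control libraries the order was the other way and the ranges were separate, with Adcy3 at 23.0 ± 1.79 FPKM and Cnga2 at 27.7 ± 1.33 FPKM (SD, n = 3 each). Neighbours in the order had separate ranges for Omp and Gfy and for Gfy and Gng13 in papain plus exosomes, for Omp and Gng13 in papain, and for all neighbours but Gng13 and Gfy in control libraries.

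**Figure D1:**
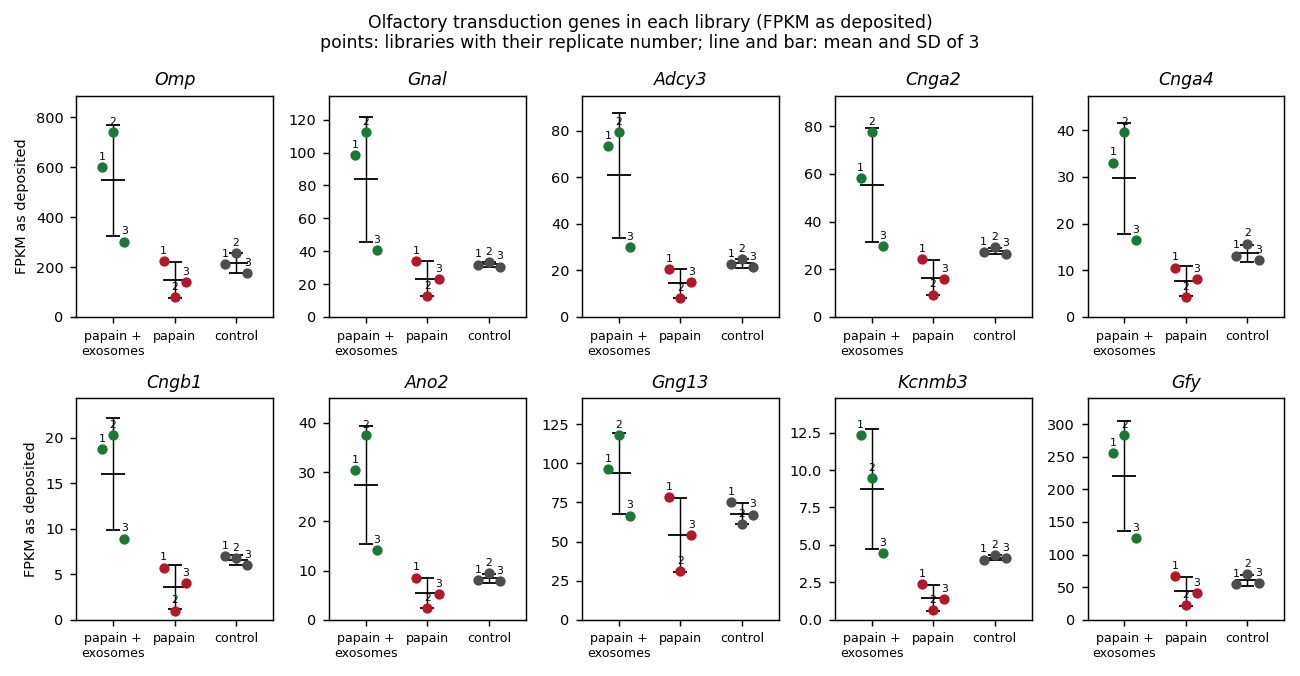
FPKM as deposited (vertical axis, linear, from 0) of the 10 olfactory transduction genes in papain plus exosomes, papain and control libraries; points are libraries with their replicate number, and the line and bar are the mean and SD of 3. Apart from Gng13, every gene is higher in all 3 papain plus exosomes libraries than in any papain or control library.

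Omp, the marker of mature neurons, had 599.7, 739.1 and 301.6 FPKM in papain plus exosomes, 224.2, 78.5 and 140.0 FPKM in papain and 213.1, 256.7 and 176.9 FPKM in control libraries. The papain plus exosomes libraries were all above the other groups, and the papain and control libraries overlapped. On scaled FPKM, Omp had 343.6, 463.1 and 256.4 in papain plus exosomes, 209.7, 110.6 and 144.1 in papain and 278.8, 336.5 and 231.1 in control libraries. After scaling the papain libraries were all below the other groups, and the papain plus exosomes and control libraries overlapped. In bulk tissue, fewer neurons and less of an RNA per neuron cannot be told apart.

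The first steps behind the receptor, Gnal and Adcy3, followed Omp closely. Gnal had 56.3, 70.3 and 34.5 scaled FPKM in papain plus exosomes, 31.6, 17.6 and 23.8 in papain and 41.7, 43.7 and 40.0 in control libraries. Adcy3 had 42.1, 49.7 and 25.4 scaled FPKM in papain plus exosomes, 19.2, 11.4 and 15.5 in papain and 29.7, 32.7 and 27.9 in control libraries. For both genes the papain libraries were below all others, and papain plus exosomes library 3 lay under the control range while libraries 1 and 2 lay over it. The ratio of Gnal to Omp averaged 0.150 ± 0.0147 in papain plus exosomes, 0.158 ± 0.00723 in papain and 0.151 ± 0.0217 in control libraries, and that of Adcy3 to Omp averaged 0.110 ± 0.0118 in papain plus exosomes, 0.101 ± 0.0082 in papain and 0.108 ± 0.0120 in control libraries (SD, n = 3 each). These ratios do not depend on the scaling of a library. Their group means differed by less than the SD in papain plus exosomes and the SD in control libraries. For both ratios the difference of papain plus exosomes from papain exceeded the smaller SD in papain libraries.

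The 3 subunits of the cyclic AMP-gated channel fell into the same pattern. Cnga2, the main subunit, had 33.4, 48.5 and 25.3 scaled FPKM in papain plus exosomes, 22.5, 13.1 and 16.3 in papain and 35.7, 38.2 and 34.7 in control libraries. Cnga4, which modulates the channel, had 18.9, 24.7 and 14.0 scaled FPKM in papain plus exosomes, 9.87, 6.02 and 8.38 in papain and 17.2, 20.6 and 15.9 in control libraries. Cngb1 had 10.8, 12.7 and 7.59 scaled FPKM in papain plus exosomes, 5.36, 1.40 and 4.14 in papain and 9.12, 8.83 and 7.83 in control libraries. In each case the papain libraries lay below all other libraries, and the papain plus exosomes libraries spanned the control range. Relative to Cnga2, Cnga4 stood at 0.544 ± 0.0294 in papain plus exosomes, 0.471 ± 0.0400 in papain and 0.493 ± 0.0410 in control libraries (SD, n = 3 each). The ratio of Cngb1 to Cnga2 averaged 0.295 ± 0.0302 in papain plus exosomes, 0.200 ± 0.0811 in papain and 0.237 ± 0.0160 in control libraries (SD, n = 3 each), and papain library 2 was the lowest of the 9 at 0.106. In that library Cngb1 was at 0.992 FPKM as deposited, the only value of this gene under 1 FPKM.

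Ano2, the chloride channel that carries most of the amplified current, had 17.5, 23.5 and 12.1 scaled FPKM in papain plus exosomes, 7.98, 3.31 and 5.42 in papain and 10.5, 12.4 and 10.3 in control libraries. Its ratio to Cnga2 was 0.523, 0.485 and 0.475 in papain plus exosomes, 0.354, 0.252 and 0.334 in papain and 0.293, 0.325 and 0.296 in control libraries. The papain plus exosomes ratios were above all 6 others, and those of papain and control overlapped. An exact two-sided permutation test of 3 libraries against 3 cannot go below p = 0.10, so no single ratio could pass 0.05 in that test. The ratios were not tested.

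Gfy, whose product resides in the Golgi, had 255.2, 283.0 and 125.1 FPKM in papain plus exosomes, 67.4, 21.8 and 40.7 FPKM in papain and 54.8, 69.6 and 56.2 FPKM in control libraries. On scaled FPKM it had 146.2, 177.3 and 106.3 in papain plus exosomes, 63.1, 30.7 and 41.9 in papain and 71.7, 91.2 and 73.4 in control libraries. It was the only one of the 10 whose papain plus exosomes libraries were all above all control libraries on both scales. Its ratio to Omp was 0.426, 0.383 and 0.415 in papain plus exosomes, 0.301, 0.278 and 0.291 in papain and 0.257, 0.271 and 0.318 in control libraries, so the papain plus exosomes ratios stood above all others.

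Kcnmb3 had the lowest level of the 10, with 12.3, 9.47 and 4.44 FPKM in papain plus exosomes, 2.36, 0.628 and 1.39 FPKM in papain and 4.01, 4.32 and 4.10 FPKM in control libraries. On scaled FPKM it had 7.06, 5.93 and 3.78 in papain plus exosomes, 2.21, 0.884 and 1.43 in papain and 5.24, 5.66 and 5.36 in control libraries. The papain libraries were below all others on both scales. Its ratio to Omp was 0.0206, 0.0128 and 0.0147 in papain plus exosomes, 0.0105, 0.0080 and 0.00990 in papain and 0.0188, 0.0168 and 0.0232 in control libraries, with every papain ratio below every other.

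Gng13 differed from the other 9 in its pattern. It had 96.5, 118.0 and 66.6 FPKM in papain plus exosomes, 78.3, 30.9 and 53.9 FPKM in papain and 75.1, 61.3 and 67.3 FPKM in control libraries, so that all 3 groups overlapped. On scaled FPKM it had 55.3, 73.9 and 56.6 in papain plus exosomes, 73.3, 43.5 and 55.5 in papain and 98.3, 80.3 and 87.9 in control libraries, and both treated groups lay below the control range and overlapped each other. Its ratio to Omp was 0.161, 0.160 and 0.221 in papain plus exosomes, 0.349, 0.393 and 0.385 in papain and 0.353, 0.239 and 0.380 in control libraries, with the papain plus exosomes ratios below all others.

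**Figure D2:**
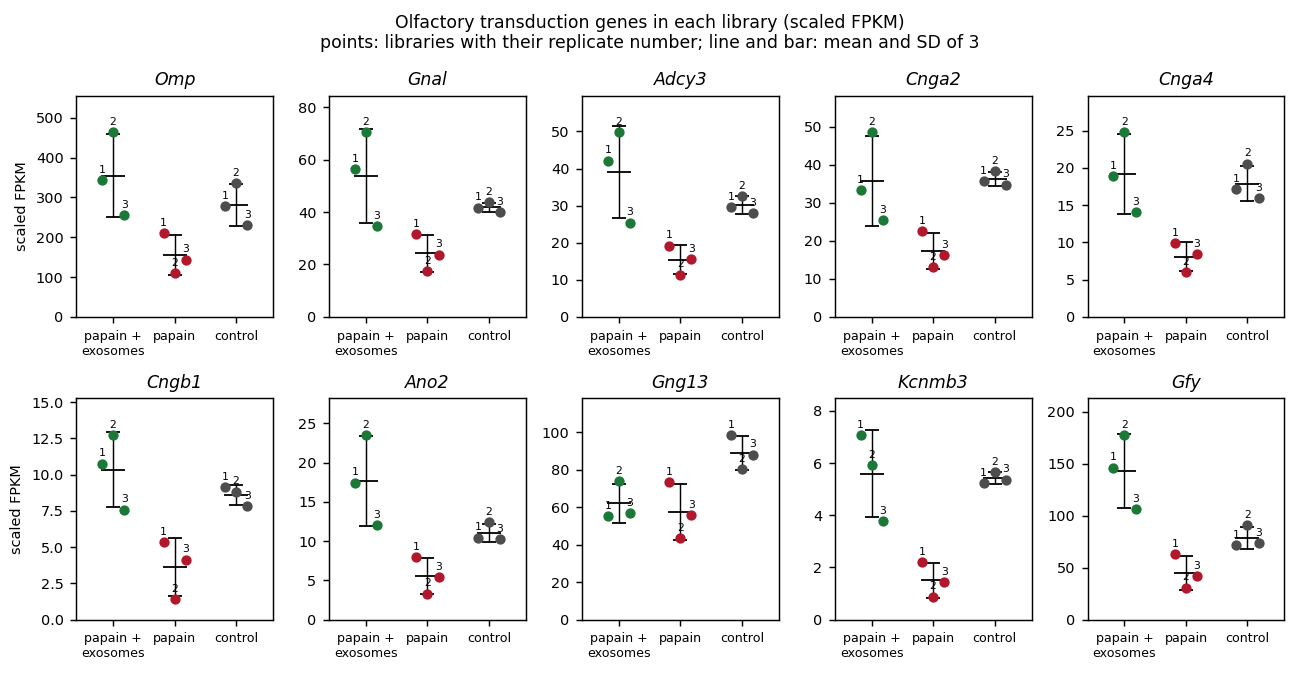
Scaled FPKM (vertical axis, linear, from 0) of the same genes in papain plus exosomes, papain and control libraries; points are libraries with their replicate number, and the line and bar are the mean and SD of 3. All 10 genes are lower in the 3 papain libraries than in any control library, and Gng13 is lower than control in the papain plus exosomes libraries too.

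Papain was compared with control to show what the protease course did to the genes. As deposited, Kcnmb3 fell, by 1.13 on the log2 scale (SE 0.28, adjusted p = 0.0243), and the other 9 did not pass the test, with log2 changes between -0.89 (Cngb1, adjusted p = 0.165) and -0.41 (Gng13, adjusted p = 0.449). Thus 1 of 10 was called lower and 0 higher, against 0.518% and 3.01% of all 12738 genes tested. In 5 of the 10, Adcy3, Cnga2, Cnga4, Cngb1 and Kcnmb3, every papain library was below every control library, against 2.42% of all genes. The median log2 change of the 10 was -0.70, against 0.19 over all genes tested.

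On the scaled values, 5 of 10 were called lower in papain than in control libraries and 0 higher, against 4.15% and 5.77% of the 12507 genes tested. These were Kcnmb3, which fell by 1.39 (SE 0.21, adjusted p = 0.00395), Cngb1, by 1.16 (SE 0.31, adjusted p = 0.0438), Cnga4, by 1.07 (SE 0.21, adjusted p = 0.0121), Cnga2, by 1.05 (SE 0.23, adjusted p = 0.0188), and Adcy3, by 0.95 (SE 0.24, adjusted p = 0.0330). The log2 change of the other 5 was -0.93 for Ano2 (adjusted p = 0.0584), -0.89 for Omp (adjusted p = 0.0637), -0.84 for Gfy (adjusted p = 0.0661), -0.79 for Gnal (adjusted p = 0.0775) and -0.65 for Gng13 (adjusted p = 0.0533). All 10 had papain libraries that were all below the control libraries, against 14.7% of all genes, and their median log2 change was -0.94, against -0.0040 over all genes. The count of lower calls moved with single libraries: as deposited it was 8 without papain library 1, 4 without papain plus exosomes library 3 and 0 without control library 1, control library 2 or papain library 3. On scaled values it was 10 without papain library 1, 9 without papain plus exosomes library 3, 3 without papain library 2, 2 without control library 1, control library 3 or papain library 3 and 1 without control library 2, and it was 7 without both papain library 2 and papain plus exosomes library 3.

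Papain plus exosomes was compared with papain to show the difference that the exosome treatment made within the model. As deposited, all 10 genes were called higher and 0 lower, against 63.0% and 0.730% of all genes tested, and in 9, all but Gng13, the groups did not overlap, against 57.5%. The median log2 change of the 10 was 1.93, against 0.56 over all genes. On the scaled values 9 of 10 were called higher and 0 lower, against 13.4% and 16.2% of all genes, and in the same 9 the groups did not overlap, against 21.1% of all genes. Their log2 changes were 1.67 for Gfy (SE 0.25, adjusted p = 0.00352), 1.52 for Ano2 (SE 0.27, adjusted p = 0.0055), 1.40 for Kcnmb3 (SE 0.21, adjusted p = 0.00354) and 1.38 for Cngb1 (SE 0.31, adjusted p = 0.0116). Adcy3 rose by 1.27 (SE 0.24, adjusted p = 0.0062), Omp by 1.20 (SE 0.27, adjusted p = 0.0112), Cnga4 by 1.14 (SE 0.21, adjusted p = 0.00586), Gnal by 1.09 (SE 0.25, adjusted p = 0.0127) and Cnga2 by 0.99 (SE 0.23, adjusted p = 0.0127). Gng13 did not pass the test, at 0.13 (95% interval -0.28 to 0.54, adjusted p = 0.632). The median log2 change of the 10 on the scaled values was 1.23, against -0.0059 over all genes. As deposited, the Gng13 call (log2 change 0.83, adjusted p = 0.0125) was lost without papain library 2 or without papain plus exosomes library 2, where its adjusted p reached 0.0832.

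Papain plus exosomes was compared with control to show how the treated model stood against untreated mucosa. As deposited, 9 of 10 were called higher and 0 lower, against 84.3% and 0.526% of all genes tested, and the groups of the same 9 did not overlap, against 87.5%, so the share among these genes was near that of all genes. The as-deposited log2 changes were 1.78 for Gfy, 1.49 for Ano2, 1.26 for Omp, 1.25 for Adcy3, 1.24 for Gnal, 1.09 for Cngb1, 0.98 for Cnga4, 0.87 for Cnga2 and 0.83 for Kcnmb3, while Gng13 was at 0.43 and did not pass (adjusted p = 0.138). On the scaled values 1 of 10 was called higher and 0 lower, against 12.3% and 15.6% of all genes. The call was Gfy, which rose by 0.83 on the log2 scale (SE 0.25, adjusted p = 0.0362) and was the only one of the 10 with no overlap in that direction, against 23.0% of all genes. The Gfy call was kept in 4 of the 9 fits that each left out 1 library and was lost, at adjusted p up to 0.117, without control library 1, control library 3, papain library 3, papain plus exosomes library 1 or papain plus exosomes library 2. The scaled log2 change was 0.30 for Omp (95% interval -0.29 to 0.90), 0.30 for Gnal (-0.27 to 0.86), 0.32 for Adcy3 (-0.21 to 0.85) and 0.59 for Ano2 (-0.02 to 1.19). The channel subunits were at -0.07 for Cnga2 (95% interval -0.58 to 0.44), 0.07 for Cnga4 (-0.39 to 0.53) and 0.22 for Cngb1 (-0.48 to 0.91), and Kcnmb3 was at 0.00 (-0.47 to 0.48). None of these 8 genes passed the test, and their intervals are wide enough that equal levels were not shown. Gng13 was at -0.52 (95% interval -0.93 to -0.11, adjusted p = 0.0587), and its papain plus exosomes libraries were all below the control libraries, against 23.9% of all genes. The scaled count of higher calls was 5 without both papain library 2 and papain plus exosomes library 3, 3 without papain plus exosomes library 3 alone, and 0 without control library 1, control library 3, papain library 3, papain plus exosomes library 1 or papain plus exosomes library 2. The 3 comparisons share libraries with one another, so their values are not independent.

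**Figure D3:**
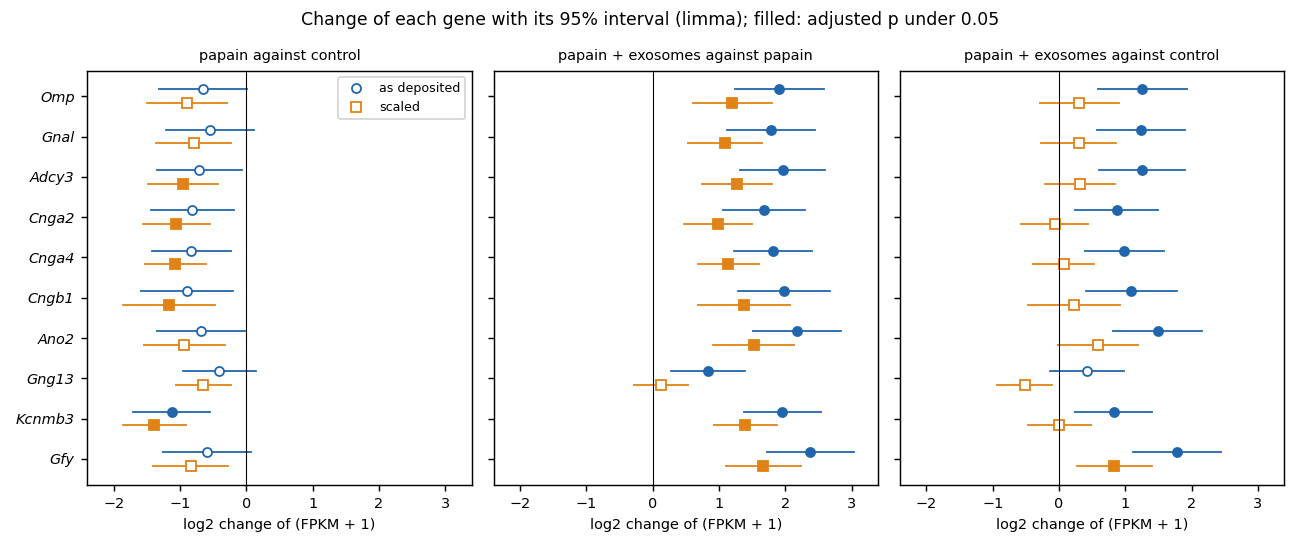
Log2 change of (FPKM + 1) with its 95% interval (horizontal axis) for each of the 10 genes in the 3 comparisons, as deposited (circles) and scaled (squares); filled symbols have an adjusted p under 0.05. In papain plus exosomes against control the scaled values of all genes but Gfy have open symbols, and Gng13 lies lowest in both comparisons of papain plus exosomes on the scaled values.

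How the genes moved among themselves was examined by dividing each library by the geometric mean of the 10, which removes both the scaling of the library and any change common to them. The 10 therefore cannot all rise or fall on this scale. The number of them called on it cannot be compared with the share of all genes called. That mean was 65.5, 73.9 and 31.1 FPKM in papain plus exosomes, 21.8, 7.07 and 14.5 FPKM in papain and 23.5, 25.5 and 22.1 FPKM in control libraries. The genes were tested in a limma fit over all 12781 genes passing the filter on this scale, a test added after the values were seen. Gng13 was lower relative to the 10 in papain plus exosomes than in papain, by 1.16 on the log2 scale (SE 0.36, adjusted p = 0.00435), and this call was kept in all 9 fits that left out 1 library. On this scale 91.7% of all genes were called lower in that comparison, that is, most genes changed less than the mean of the 10. Kcnmb3 was lower relative to the 10 in papain than in control, by 0.65 (SE 0.26, adjusted p = 0.0239). Over all genes 0.391% were called lower and 87.5% higher in that comparison, and these shares do not show how rare the Kcnmb3 call was. The Kcnmb3 call was kept in 5 of 9 such fits and was lost, at adjusted p up to 0.0878, without control library 1, 2 or 3 or papain library 3.

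No other gene of the 10 was called on the relative scale. Over all genes 87.5% were called higher there in papain against control and 0.0861% in papain plus exosomes against papain. These shares are no measure for the 10, whose common change was removed. In papain plus exosomes against control, 0 of the 10 were called. Over all genes 0.211% were called higher and 0.344% lower there, which again is no measure for the 10. Gfy stood at 0.62, 0.60 and 0.67 in papain plus exosomes, 0.29, 0.29 and 0.15 in papain and -0.12, 0.11 and 0.01 in control libraries (log2 relative level, minus the mean of control). The papain plus exosomes libraries were the highest and the papain libraries lay between these and the control libraries, and 4.19% of all genes had papain plus exosomes libraries all above control on this scale. The difference of papain plus exosomes from control, 0.62 (SE 0.36, adjusted p = 0.659), did not pass in the fit, whose SE draws on the spread of all genes on this scale. Gng13 stood at -0.96, -0.84 and -0.42 in papain plus exosomes, 0.33, 0.61 and 0.38 in papain and 0.16, -0.25 and 0.09 in control libraries. Kcnmb3 stood at 0.10, -0.45 and -0.30 in papain plus exosomes, -0.70, -0.98 and -0.87 in papain and -0.04, -0.05 and 0.09 in control libraries. Omp, Gnal, Adcy3, Cnga2 and Cnga4 kept within 0.40 of the control mean in every library.

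**Figure D4:**
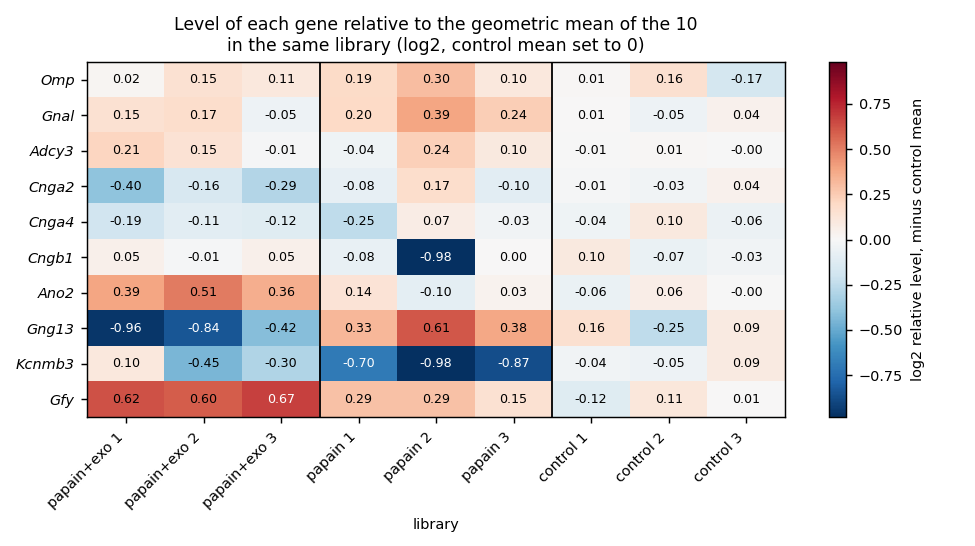
Log2 level of each gene (rows) relative to the geometric mean of the 10 in the same library (columns), minus the mean of the control libraries; red is above and blue below. Gng13 is between -0.96 and -0.42 in papain plus exosomes, Kcnmb3 between -0.98 and -0.70 in papain, and Gfy between 0.60 and 0.67 in papain plus exosomes libraries.

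Across the 9 libraries the scaled log2 levels of the 45 pairs of these genes had Pearson correlations of 0.324 to 0.993 with a median of 0.952, and 34 pairs were over 0.9. Taken as deviations from the group means, the median over the pairs was 0.901, so the genes also moved together between libraries of 1 group. Gng13 had the lowest median correlation with the others, 0.543, and a correlation of 0.597 with the mean of the 10, where the other 9 had 0.942 to 0.991. As deviations from the group means, its median correlation with the others was 0.752, where the other 9 had medians of 0.835 to 0.964. All points share libraries and scaling factors, so these values describe the libraries and are given without a p.

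The genes outside the 10 whose scaled log2 levels were most like the mean of the 10 over the 9 libraries were Scn3b (r = 0.994), Umodl1 (0.994), Atp8b3 (0.992), Nsg1 (0.991), Ric8b (0.990), Scn4b (0.989), Arsg (0.989) and Efr3b (0.988). Scn3b and Scn4b encode auxiliary subunits of voltage-gated sodium channels, Atp8b3 a phospholipid-transporting ATPase and Arsg an arylsulfatase. Scn3b had 22.5, 24.0 and 12.4 FPKM in papain plus exosomes, 10.2, 4.56 and 7.87 FPKM in papain and 9.30, 9.18 and 8.27 FPKM in control libraries. Of the 100 genes most like the mean, 4 were from the list of receptor transport and signalling partners (Ric8b, Rtp2, Stoml3 and Rtp1), 2 from the other mature neuron markers (Umodl1 and Faim2) and 1 was an odorant receptor gene. Odorant receptor genes made up 0.955% of the 11932 candidates.

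The partners of the pathway were followed in a list of 14 genes for receptor transport, signalling partners and response termination, all of which were tested. Against control, papain changed 0 of 14 as deposited, and on the scaled values 6 fell and 0 rose, against 4.15% of all genes called lower and 5.77% higher. Stoml3, a stomatin-family protein of olfactory cilia, fell by 1.32 (SE 0.26, adjusted p = 0.0137), and Pde1c, the calcium-activated phosphodiesterase that degrades cyclic AMP in cilia, fell by 1.02 (SE 0.19, adjusted p = 0.0113). Ric8b, which assists the Gnal product, fell by 0.93 (SE 0.22, adjusted p = 0.0297). Rtp1 and Rtp2, which carry odorant receptors to the cell surface, fell by 0.82 (SE 0.19, adjusted p = 0.0249) and by 0.75 (SE 0.18, adjusted p = 0.0282). The scaled median of the list was -0.46, against -0.0040 over all genes.

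Papain plus exosomes against papain changed 12 of the 14 upward as deposited, where 63.0% of all genes were called higher. On the scaled values 9 of the 14 rose and 1 fell, against 13.4% and 16.2% of all genes. The scaled rises included Stoml3, by 1.16 (SE 0.26, adjusted p = 0.0116), the phosphodiesterase gene Pde4a, by 1.14 (SE 0.21, adjusted p = 0.00597), Ric8b, by 0.97 (SE 0.22, adjusted p = 0.0129), and Slc24a4, the sodium-calcium exchanger that clears calcium after a response, by 0.61 (SE 0.09, adjusted p = 0.00352). Slc12a2, which loads cells with the chloride that the Ano2 channel releases, went the other way: it had 35.1, 38.6 and 45.2 scaled FPKM in papain plus exosomes, against 66.0, 68.4 and 56.7 in papain libraries, a log2 change of -0.67 (SE 0.11, adjusted p = 0.0045). Slc12a2 is also made by other epithelial cells. As deposited Slc12a2 was at 0.03 (adjusted p = 0.894), so its direction depended on the scaling. The scaled median of the list was 0.60, against -0.0059 over all genes.

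Papain plus exosomes against control changed all 14 upward as deposited, where 84.3% of all genes were called higher. On the scaled values Slc24a4 rose by 0.36 (SE 0.09, adjusted p = 0.0197) and Slc12a2 fell by 0.39 (SE 0.11, adjusted p = 0.0311). On these values 11 of the 14 did not pass, where 12.3% of all genes were called higher and 15.6% lower. Ric8b was at 0.04 (adjusted p = 0.907), Rtp1 at -0.07 (adjusted p = 0.806) and Rtp2 at -0.01 (adjusted p = 0.978). The scaled median was 0.02, against 0.0092 over all genes.

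The odorant receptor genes upstream of the pathway (1093 genes with Olfr symbols) were set beside the transduction genes. Their summed level was 741, 936 and 489 FPKM in papain plus exosomes, 568, 202 and 313 FPKM in papain and 494, 479 and 440 FPKM in control libraries, and 750 of them were under 1 FPKM in every library. The geometric mean of the 10 transduction genes, over this sum, was 0.0883, 0.0789 and 0.0636 in papain plus exosomes, 0.0383, 0.0350 and 0.0462 in papain and 0.0475, 0.0531 and 0.0501 in control libraries. The papain plus exosomes ratios were above all others and the papain ratios below all others. In papain against control, 42 of the 172 receptor genes tested as deposited were called lower and 0 higher, against 0.518% and 3.01% of all genes. On scaled values 88 of 173 were called lower and 0 higher, against 4.15% and 5.77% of all genes. In papain plus exosomes against papain, 99 were called higher and 0 lower as deposited, against 63.0% and 0.730% of all genes, and 46 higher and 1 lower on scaled values, against 13.4% and 16.2%. In papain plus exosomes against control the direction turned with the scaling. As deposited 62 were called higher and 4 lower, against 84.3% and 0.526% of all genes, with a median log2 change of 0.34, against 1.17 for the 10 transduction genes and 0.76 over all genes. On scaled values 1 was called higher and 52 lower, against 12.3% and 15.6% of all genes, with a median log2 change of -0.25, against 0.26 for the 10 transduction genes and 0.0092 over all genes. Receptor genes form a large family, and how reads shared by close copies were counted is not given in the sources used here.

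Of 8 other markers of mature olfactory neurons, 1 fell in papain against control as deposited and 5 on scaled values, against 0.518% and 4.15% of all genes. Papain plus exosomes against papain had 8 that rose as deposited and 5 on scaled values, against 63.0% and 13.4% of all genes. Set against control, 7 rose in papain plus exosomes as deposited and 0 on scaled values, against 84.3% and 12.3% of all genes. Kirrel2, an adhesion molecule that sorts olfactory axons, had 45.1, 31.6 and 19.4 scaled FPKM in papain plus exosomes, 6.92, 4.70 and 5.40 in papain and 24.4, 29.1 and 22.1 in control libraries. It fell by 1.98 in papain against control (SE 0.25, adjusted p = 0.00165) and rose by 2.24 in papain plus exosomes against papain (SE 0.25, adjusted p = 0.00167). S100a5, a calcium-binding protein of these neurons, had 391.8, 380.1 and 321.7 scaled FPKM in papain plus exosomes, 313.7, 154.2 and 225.0 in papain and 542.9, 538.9 and 506.1 in control libraries. It fell by 1.25 in papain against control (SE 0.22, adjusted p = 0.00742), and its papain plus exosomes libraries stayed below all control libraries, at -0.54 (SE 0.22, adjusted p = 0.0891). The transcription factor genes Lhx2, Emx2 and Ebf2 were not called in any of the 3 comparisons on scaled values.

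Genes of ciliary trafficking and of younger neurons are given for comparison. Of 8 ciliary trafficking genes, 0 fell in papain against control as deposited and 1 on scaled values, against 0.518% and 4.15% of all genes, and 0 rose on either scale. The 1 was Ttc8, a Bardet-Biedl syndrome gene, which fell by 0.65 (SE 0.10, adjusted p = 0.0041). Set against papain, 8 of them rose in papain plus exosomes as deposited and 4 on scaled values, against 63.0% and 13.4% of all genes. Of 7 markers of immature olfactory neurons, 0 were called in papain against control on either scale, where 0.518% and 4.15% of all genes were called lower. Of these 7, 6 rose as deposited and 2 on scaled values in papain plus exosomes against papain, against 63.0% and 13.4% of all genes. In papain plus exosomes against control 7 rose as deposited and 0 on scaled values, where 84.3% and 12.3% of all genes were called higher. On scaled values Tubb3, a neuronal tubulin, rose by 0.92 in papain plus exosomes against papain (SE 0.22, adjusted p = 0.0145), while Gap43 was at 0.08 (adjusted p = 0.803) and Stmn2 at -0.24 (adjusted p = 0.336). Of 5 progenitor genes tested, out of 7 listed, 0 fell as deposited and 2 on scaled values in papain plus exosomes against papain, against 0.730% and 16.2% of all genes. Among the 2 was Top2a, a topoisomerase of dividing cells, which fell by 0.85 (SE 0.22, adjusted p = 0.0180). Whether the share called differed between these lists was not tested.

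**Figure D5:**
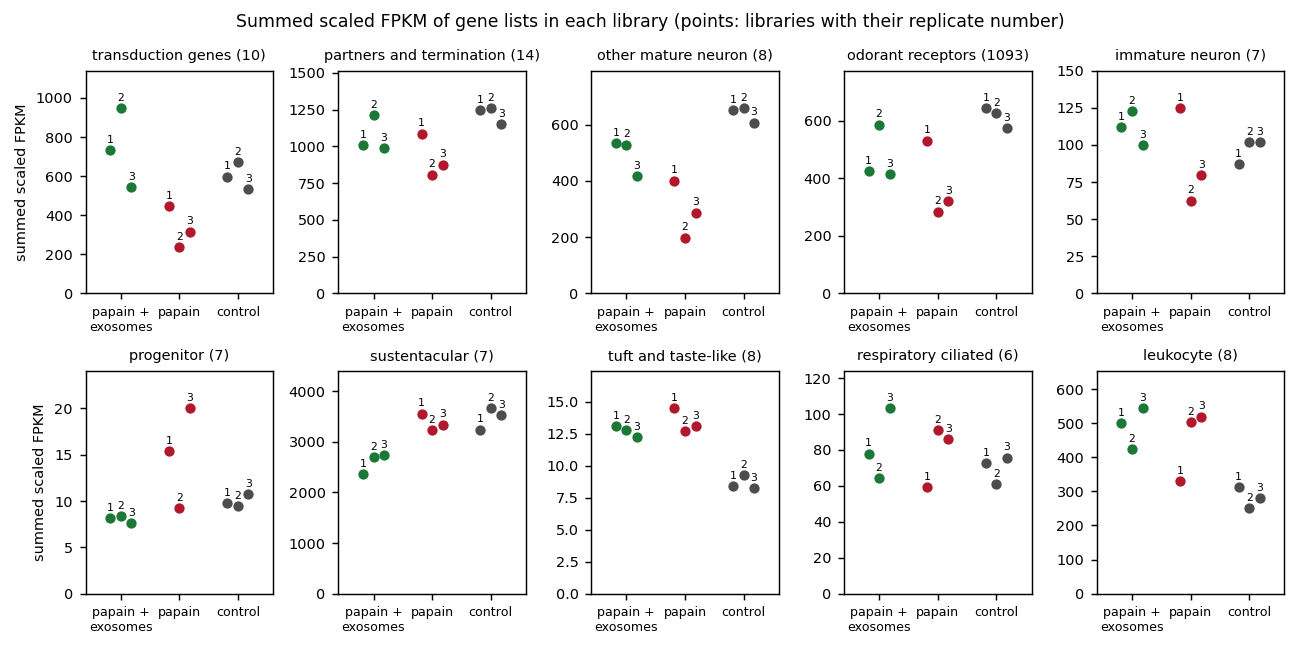
Summed scaled FPKM (vertical axis, linear, from 0) of 10 gene lists in papain plus exosomes, papain and control libraries; points are libraries with their replicate number, and the number of genes is in each panel's title. The transduction genes sum to 542 to 950 in papain plus exosomes, 238 to 445 in papain and 534 to 670 in control libraries, and the tuft and taste-like list is higher in both papain-treated groups than in control.

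Markers of other cells moved with the groups, and their part in the results on the transduction genes was not tested. The summed scaled FPKM of 8 leukocyte genes was 424 to 544 in papain plus exosomes, 331 to 519 in papain and 251 to 314 in control libraries. Most of it came from Lyz2. The sum of 7 sustentacular cell genes was 2363 to 2743 in papain plus exosomes, 3232 to 3559 in papain and 3244 to 3669 in control libraries. Most of this sum came from Cyp2a5, and the genes of the list did not move as 1. In papain plus exosomes against papain, 1 of the 7 was called higher and 1 lower on scaled values, against 13.4% and 16.2% of all genes. Cyp2a5 was at -0.44 (adjusted p = 0.0503) and Cyp2g1 at 0.03 (adjusted p = 0.927). The 5 Bowman's gland genes (scaled FPKM again) summed to 21571 to 38051 in papain plus exosomes, 30083 to 69357 in papain and 77180 to 83255 in control libraries. Nearly all of this sum came from Bpifb9a and Bpifb9b. Muc5b, a gel-forming mucin, had 19.9 ± 3.85 scaled FPKM in papain plus exosomes, 18.4 ± 4.45 in papain and 6.33 ± 0.202 in control libraries (SD, n = 3 each), and rose in papain against control (adjusted p = 0.00131) and in papain plus exosomes against control (adjusted p = 0.0010). Aqp5 (0.34, adjusted p = 0.152) and Sox9 (0.21, adjusted p = 0.297) did not pass in papain against control. Bpifb9a (-0.79, adjusted p = 0.249) and Bpifb9b (-0.87, adjusted p = 0.241) did not pass there either, and in papain plus exosomes against control they fell by 1.54 (adjusted p = 0.0217) and by 1.60 (adjusted p = 0.0250), and Sox9 by 0.39 (adjusted p = 0.0349). The 5 vomeronasal neuron genes summed to 57.3 to 72.3 in papain plus exosomes, 44.4 to 47.3 in papain and 44.3 to 54.9 in control libraries. The vomeronasal sum was highest in papain plus exosomes, but most of it came from Gnai2 in every library. Of the 5 genes 4 were tested. On scaled values 2 were called higher in papain plus exosomes against papain and 1 against control, where 13.4% and 12.3% of all genes were called higher. The 8 tuft and taste-like cell genes, of interest because taste-type cells also make the Gng13 product, summed to 12.3 to 13.1 in papain plus exosomes, 12.7 to 14.5 in papain and 8.25 to 9.26 in control libraries, with 0 of them at 0 in every library and 1 under 1 FPKM in every library. Gng13 alone had 43.5 to 98.3 scaled FPKM over the libraries, and which cells its RNA came from was not tested. Of 8 genes of olfactory bulb and brain, Slc32a1 was listed at 0 and 6 were under 1 FPKM in every library.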

How the data were processed

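Poly(A) RNA of nasal mucosa was measured in 9 libraries, 3 per group, grouped by their titles and treatment labels. The authors deposited 1 table of FPKM values per gene and library. The submitters' processing notes name fastp 0.19.4, HISAT2, StringTie and the mm10 build, and the sources used here name no annotation or strand setting. Identifiers were matched to symbols through the gene tables supplied with the reference, and 21817 of 21930 had one.

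Depth is not given with the deposited FPKM values. The steps of low values in genes of 1 transcript put it roughly between 15.2 and 24.8 M fragments. Whole reads were not recovered, because the share of these values within 5% of a whole number of fragments was 18.1% to 25.1%, where an even spread gives 10%, and no count test was run.

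Values were tested on log2(FPKM + 1) with limma 3.58.1 (R 4.3.3, mean-variance trend, 3 comparisons from 1 fit of 9 libraries), after a filter of FPKM of at least 1 in at least 3 libraries, and p-values were adjusted by the Benjamini-Hochberg method over all genes tested. The same fit was run on median-of-ratios scaled FPKM, with the filter applied to the scaled values (factors from 16486 genes above 0 in every library), and, as an addition after the data were seen, on values relative to the geometric mean of the 10 genes. The code was tested on simulated data. Promoter windows came from the RefSeq table of GRCm38.p6. Figures were drawn with matplotlib 3.10.9 under Python 3.11.15.

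All 10 transduction genes were described. Of the other lists, counts were given, with the called genes of the first list (except 1 that is not reported here), up to 3 genes of highest level in each other list, and the 8 genes of most similar pattern. Lhx2, Emx2, Ebf2, Muc5b and Sox9 fall outside this rule and were chosen after their values were seen. So do Faim2 and Slc32a1, which are named without a test result. The genes and lists were chosen with earlier results of these data known. Alternatives were another pseudocount, other filters, other scalings, a replicate block, pairwise fits, weights and leaving out libraries.

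Same-numbered libraries did not pair: the correlations of their deviations from group means were -0.0736, -0.167 and 0.0278 between control and papain, -0.0814, 0.0821 and 0.141 between control and papain plus exosomes, and 0.130, -0.312 and 0.0199 between papain and papain plus exosomes.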

Additional observations from a re-analysis of the deposited data

How the results depend on the processing

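The count of transduction genes called lower in papain against control, 1 as deposited, changed with the settings. It was 0 with no filter on low values and 0 with a filter at 5 FPKM, at which Kcnmb3 was not tested. It was 5 with median-of-ratios scaling, 5 with quantile normalization, 5 in a fit of the 2 groups only and 10 with array weights, a fit that stopped before its tolerance was met. Scaling gave 4 with a pseudocount of 0.1 and 5 with the 2 groups only. Leaving out both papain library 2 and papain plus exosomes library 3 gave 5 as deposited and 7 with scaling. Leaving out 1 library at a time gave 0 to 8 as deposited and 1 to 10 with scaling. The count called higher in papain plus exosomes against papain, 10 as deposited, stayed at 9 to 10 without 1 library and at 8 to 9 with scaling. The count called higher in papain plus exosomes against control, 9 as deposited, was 1 with scaling, 1 with quantile normalization, 1 with scaling and a pseudocount of 0.1, and 1 with scaling and the 2 groups only. It was 5 with scaling and without both libraries named above. Without 1 library it was 8 to 10 as deposited and 0 to 3 with scaling. The count called lower there, 0 as deposited, was 1 with scaling and the 2 groups only, and 0 to 1 with scaling and without 1 library. The causes of these shifts were not tested.

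A replicate block on the numbers in the titles left the as-deposited counts at 1 lower, 10 higher and 9 higher in papain against control, papain plus exosomes against papain and papain plus exosomes against control, in that order. With scaling, the block gave 4 lower in papain against control, 9 higher in papain plus exosomes against papain and 0 higher in papain plus exosomes against control, where Gfy had an adjusted p of 0.0548.

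Directions reversed only with scaling or quantile normalization. In papain plus exosomes against control, the log2 change of Cnga2 was 0.87 as deposited, -0.066 with scaling, with scaling and block and with scaling and the 2 groups only, and -0.069 with scaling and a pseudocount of 0.1. Gng13 was 0.43 as deposited, -0.521 with scaling, with scaling and block and with scaling and the 2 groups only, -0.528 with scaling and a pseudocount of 0.1, -0.366 with quantile normalization and -0.464 with scaling without both libraries. Kcnmb3 was 0.83 as deposited, -0.009 with quantile normalization and -0.002 with scaling and a pseudocount of 0.1. With scaling and without 1 library, Cnga2 ranged from -0.305 to 0.149, Cnga4 from -0.119 to 0.269, Gng13 from -0.653 to -0.446 and Kcnmb3 from -0.158 to 0.220 in that comparison, and Gng13 from -0.054 to 0.315 in papain plus exosomes against papain. Without 1 library as deposited they ranged from 0.577 to 1.250, 0.741 to 1.346, 0.241 to 0.649 and 0.553 to 1.200, and Gng13 from 0.482 to 1.139 in papain plus exosomes against papain. The 3 libraries per group and the unknown depth limit the precision of Kcnmb3 and Cngb1, which fell to under 1 FPKM in papain library 2.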
